A study of Mus musculus with 24 samples.

Results

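The comparison described here set vehicle-treated MIN6 cells that carried an EIF2A-GFP plasmid against vehicle-treated MIN6 cells that carried a GFP plasmid. Its members are 6 of the 24 libraries of the study, 3 in each group: both constructs at 0 h of treatment, replicates 2 to 4. Replicate 1 was left out because its 2 libraries hold Eif2a in the order opposite to their labels, so the agreement among the 6 libraries is in part a matter of that choice and not a finding. MIN6 is a mouse insulinoma line that makes and secretes insulin, and it was grown in medium with 22.2 mM glucose and serum. The control group was transfected with GFP, the other group with EIF2A fused to GFP, and both received DMSO, the solvent of thapsigargin, a drug that blocks calcium uptake into the endoplasmic reticulum (ER). No source used here gives the species or ends of the EIF2A insert, or the promoter that drives it. The same 2 constructs were also sampled after 1 h and 3 h of 1 µM thapsigargin, and replicates 2 to 4 of those times are used below only as side values. PolyA RNA was sequenced as strand-marking libraries and counted per gene.

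EIF2A is a single-chain initiation factor that can bring initiator tRNA to the small ribosomal subunit. It is a different protein from eIF2, the heterotrimer that normally carries out this step and whose alpha subunit (Eif2s1) is phosphorylated by PERK and related kinases when cells are stressed, which shuts down most initiation. Beta cells make insulin at a rate that loads the ER heavily, so both the unfolded protein response and the translation machinery are prominent in them. The study asked, by its title, whether EIF2A protects beta cells during ER stress. The vehicle libraries show how the cells of the 2 constructs differed before any stress was added.

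Replicate 1 was left out at 0 h, 1 h and 3 h, and its values are given apart from the others below. At 0 h its library labelled GFP and its library labelled EIF2A each differed from the other libraries of their own label by a chi-square of 69.3 to 79.0 per degree of freedom over genes, against 1.32 to 1.96 among GFP replicates 2 to 4 and 3.198 to 7.08 among EIF2A replicates 2 to 4. The labels do not say whether replicates were separate cultures, so the p-values below measure only the spread between these libraries, which may be technical. With only 1 library of each construct in replicate 1, no test was possible within it. The plasmid and any difference between the lots of cells that received each plasmid cannot be told apart in the remaining 6 libraries. Whether the labels of replicate 1 were exchanged was not tested, and every direction below holds for replicates 2 to 4 as labelled.

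Eif2a, the targeted gene, stood at 76.7, 75.6 and 76.4 CPM with GFP and 137, 137 and 129.7 CPM with EIF2A (CPM, read counts scaled to a common library size of 1e6 within the 6 libraries). Values written after "rose by" or "fell by" here and below are differences on the log2 scale. Each EIF2A library lay above each GFP library, and the log2 fold change was 0.82 ± 0.047 (SE, adjusted p = 6.71e-11) by the edgeR quasi-likelihood test. The order of Eif2a was the reason for leaving out replicate 1, so this separation and its p-value follow in part from that choice. With replicate 1 included, the edgeR log2 fold change was -0.022 (adjusted p = 0.976). After 1 h of thapsigargin Eif2a was at 88.3, 86.8 and 91.1 CPM with GFP and 197, 185 and 174 CPM with EIF2A, with a log2 ratio of 1.06. After 3 h the log2 ratio was 0.96. In replicate 1 the order was the other way round, with 258 CPM in the library labelled GFP and 77.6 CPM in the library labelled EIF2A, a log2 ratio of -1.73. The same order was found at the later times: of 1e6 gene counts Eif2a took 346 in the library labelled GFP and 95.1 in the library labelled EIF2A of replicate 1 after 1 h, and 372 and 108 after 3 h. At 0 h the library labelled GFP in replicate 1 thus held more Eif2a than any of the 3 EIF2A libraries compared here. Eif2a lies on chromosome 3 (GRCm38, chr3:58525821-58557501, plus strand), and 72 of its bases overlap Serp1, which is read from the opposite strand. Any plasmid reads that match the mouse gene are counted with those of the chromosomal gene, and the counts do not tell them apart. Since the species of the insert is not given, how many plasmid reads match is not known.

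Of 13174 genes tested, 4557 (34.6%) were called higher with EIF2A and 4760 (36.1%) lower at an adjusted p under 0.05, so that 70.7% of all genes were called in one direction or the other. A change of 2-fold or more was called for 550 genes upward (4.17%) and for 1038 genes downward (7.88%). Against this background a call alone says little about any one gene, and the size of a change, its levels in each library and its behaviour in the other libraries are given below for that reason. A gene list with the shares of all genes would itself be called in both directions, 34.6% higher and 36.1% lower. List counts below are to be read beside these shares. Of the calls 48.9% were upward. That share was 36.9% when libraries were scaled by their totals, which moved the median log2 fold change over all genes from -0.004 to -0.12. It was 60.0% when a trend with transcript length was taken out, with a median of 0.09. With library totals 3463 of 13174 genes were higher and 5934 lower, and with the length trend removed 5241 and 3500 of 12674. List counts under either alternative are to be read beside these counts, since all genes shift with it. With the replicate 1 libraries put back (4 libraries a group) edgeR called 0 genes in either direction, with 3018 genes at an unadjusted p under 0.05, and no other tool was run on that set.

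**Figure D1:**
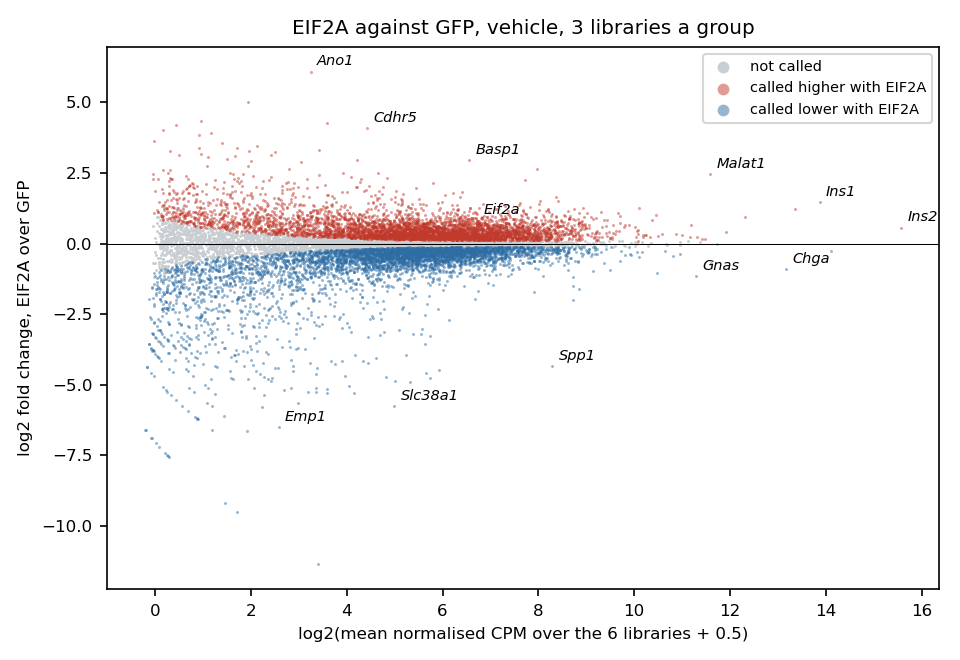
Log2 fold change of each tested gene (EIF2A over GFP, vertical axis) against log2 of its mean normalised CPM plus 0.5 (horizontal axis), 3 libraries a group, with called genes in colour. The 4557 genes called higher and 4760 called lower cover the whole range of levels, and the lower genes reach further from 0 than the higher ones.

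The same genes were read in the libraries that the test did not use. Of the genes called higher by 2-fold, 516 (93.8%) had all 3 EIF2A libraries above all 3 GFP libraries of replicates 2 to 4 after 1 h of thapsigargin, and 510 (92.7%) after 3 h. Over all tested genes such separation upward occurred for 36.8% at 1 h and 33.1% at 3 h, and downward for 38.6% and 34.2%. Of the genes called lower by 2-fold, 1003 (96.6%) were separated downward at 1 h and 971 (93.5%) at 3 h. In replicate 1, by contrast, 484 (88.0%) of the genes called higher by 2-fold and 1006 (96.9%) of those called lower by 2-fold had a ratio on the other side of 0. Over all tested genes 49.9% had a replicate 1 ratio below 0. Of the 711 genes called at 2-fold with a mean of at least 5 CPM, 23 kept their direction in replicate 1 and 0 kept it by 2-fold.

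**Figure D2:**
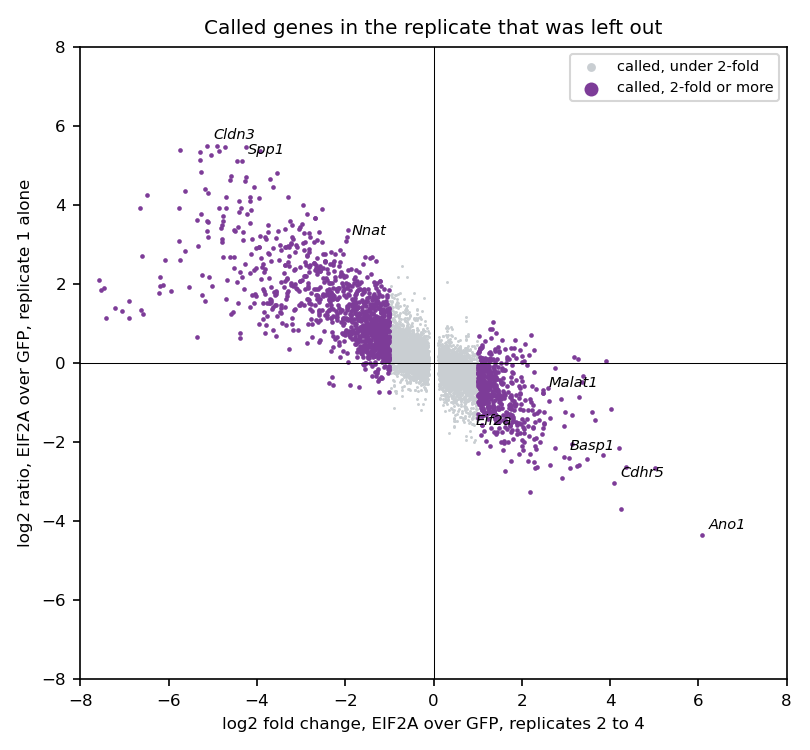
Called genes by their log2 fold change in replicates 2 to 4 (horizontal) and the log2 ratio of the single EIF2A and GFP libraries of replicate 1 (vertical), each with EIF2A over GFP. Genes called at 2-fold or more (purple) lie mostly at the upper left and lower right, where the 2 values have opposite signs, and 3 genes fall outside the axes.

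Insulin transcripts were higher in the cells with the EIF2A plasmid, and the islet-enriched genes around them moved in both directions. Ins1, one of the 2 mouse insulin genes, stood at 7939, 7858 and 7980.3 CPM with GFP and 20667, 22687 and 22871 CPM with EIF2A. All 3 EIF2A libraries were above all 3 GFP libraries, with a log2 fold change of 1.48 ± 0.049 (SE, adjusted p = 3.94e-14). Ins2, the other insulin gene, stood at 39485, 39447 and 39195 CPM with GFP and 56718, 61435 and 56892 CPM with EIF2A, a log2 fold change of 0.57 ± 0.046 (SE, adjusted p = 6.08e-09). Insulin reads made up 4.92% ± 0.0077 (SD, n = 3) of gene counts with GFP and 7.72% ± 0.29 (SD, n = 3) with EIF2A. Within them the Ins1 share was 16.8% ± 0.15 and 27.4% ± 1.07 (SD, n = 3 each). For both shares the exact permutation test gave p = 0.10 (two-sided), the smallest that 3 against 3 libraries allow. The Ins1 share stayed at 28.5% to 30.3% with EIF2A after 1 h and at 29.3% to 30.3% after 3 h, and it lay between 16.1% and 17.5% in the 6 GFP libraries of those times, always in replicates 2 to 4. In replicate 1 it was 19.2%, 19.8% and 19.6% at 0 h, 1 h and 3 h in the libraries labelled GFP and 12.4%, 12.4% and 12.3% in those labelled EIF2A, the opposite order. The 2 genes are close copies, and no source used here says how reads that match both were counted.

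The sequence just before the Ins1 start is shown because Ins1 had the second largest gain in CPM of all genes, after Ins2, and because regulators of this sequence were measured alongside it. It is RefSeq sequence of GRCm38.p6, chr19:52264047-52264296 on the plus strand, the 250 bases before the annotated start. Capitals mark TAAT, the core bound by homeodomain factors such as PDX1, and CATCTG, an E-box of the kind bound by NEUROD1 with its partners, each searched on both strands with no overlap between them.

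Ins1: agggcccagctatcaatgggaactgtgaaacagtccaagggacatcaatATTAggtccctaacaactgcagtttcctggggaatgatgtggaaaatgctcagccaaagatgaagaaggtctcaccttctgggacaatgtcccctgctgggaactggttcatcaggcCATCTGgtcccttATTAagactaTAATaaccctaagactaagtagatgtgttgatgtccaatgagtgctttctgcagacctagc

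It holds 3 TAAT cores and 1 CATCTG. Of 10053 tested genes with a window of this length, 38.4% held a TAAT, 9.92% a CATCTG and 4.60% both. Among the 380 windows of genes called higher by 2-fold these shares were 47.1%, 17.1% and 9.47%, and among the 757 of genes called lower by 2-fold 36.7%, 10.96% and 4.76%. Over all 27025 promoter windows, tested or not, they were 55.4%, 14.5% and 8.86%. Median G and C was 60.4% for tested genes, 58.4% for those higher by 2-fold, 60.8% for those lower by 2-fold and 52.0% over all windows. The part of base composition in these shares was not tested. A match is only a run of letters. Of the factors named, Pdx1 stood at 277, 285 and 285 CPM with GFP and 305, 324 and 352 CPM with EIF2A, called higher with a log2 fold change of 0.21 ± 0.052 (SE, adjusted p = 0.00158). It missed the threshold with library totals (adjusted p = 0.0996) and with 18 libraries sharing the spread (adjusted p = 0.0594). Neurod1 was at 287, 273 and 275 CPM with GFP and 329.6, 290.2 and 285 CPM with EIF2A, with a log2 fold change of 0.12 ± 0.054 (SE, adjusted p = 0.0616). Mafa, a beta cell activator of insulin genes, was lower and uneven, at 328, 306 and 315 CPM with GFP and 153, 209 and 257 CPM with EIF2A. Its log2 fold change was -0.62 ± 0.17 (SE, adjusted p = 0.0174), and it missed the threshold with the replicate block (adjusted p = 0.0976) and without GFP replicate 2 (adjusted p = 0.0604).

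Hormones and peptides of islet cells went both ways. Of 20 tested members of that list 7 (35.0%) were higher, a share near that of all genes, and 9 (45.0%) were lower, with a median log2 fold change of -0.13. Iapp, which encodes amylin, the peptide co-secreted with insulin, was slightly lower at 19077, 19169 and 18824 CPM with GFP and 16772, 15582 and 15734 CPM with EIF2A, log2 fold change -0.25 ± 0.045 (SE, adjusted p = 9.85e-05). Replicate 1 gave the same ratio, -0.25, so Iapp kept its direction there. Ucn3, a peptide of mature beta cells, fell from 18.9 to 0.496 CPM on average, log2 fold change -5.11 ± 0.21 (SE, adjusted p = 9.12e-13). Gcg, the glucagon gene normally of alpha cells, stood at 713, 684 and 671 CPM with GFP and 234, 221 and 219 CPM with EIF2A, with no overlap, and its log2 fold change was -1.62 ± 0.048 (SE, adjusted p = 1.11e-14). Scgn, the calcium sensor secretagogin, rose with a log2 fold change of 0.995. Other peptides rose with insulin: on average Npy, neuropeptide Y, went from 3505 to 6687 CPM and Sct, the gut hormone secretin, from 69.6 to 431 CPM. Igf2, an imprinted growth factor, was at 6223, 6134 and 6396 CPM with GFP and 13371, 14784 and 15651 CPM with EIF2A, log2 fold change 1.22 ± 0.054 (SE, adjusted p = 2.12e-12).

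Glucose sensing was split by gene. Of 35 tested members of the glucose sensing, channel and receptor list 12 (34.3%) were higher, near the 34.6% of all genes. Another 18 (51.4%) were lower, against 36.1% of all genes (median -0.26). With the length trend removed 16 were higher and 14 lower of 34 (median 0.05), and with library totals 9 and 19 of 35 (median -0.37). Slc2a2, the glucose transporter GLUT2, was at 36.3, 38.2 and 37.8 CPM with GFP and 142, 120.0 and 134 CPM with EIF2A, a log2 fold change of 1.82 ± 0.061 (SE, adjusted p = 5.05e-14). G6pc2, the islet enzyme that hydrolyses glucose 6-phosphate, rose by 0.43. Glp1r, the receptor for the incretin GLP-1, was at 71.5, 71.5 and 73.8 CPM with GFP and 35.4, 34.5 and 33.9 CPM with EIF2A and fell with a log2 fold change of -1.06 ± 0.055 (SE, adjusted p = 1.83e-11). Gnas, which encodes the stimulatory G protein alpha subunit downstream of such receptors, had one of the largest losses in CPM, at 3487, 3445 and 3464 CPM with GFP and 1569, 1652 and 1476 CPM with EIF2A, log2 fold change -1.15 ± 0.048 (SE, adjusted p = 1.17e-12). Prkar1a, a regulatory subunit of the cAMP-dependent kinase, was at 1905, 1923 and 1923 CPM with GFP and 951, 913 and 908 CPM with EIF2A, log2 fold change -1.05 ± 0.044 (SE, adjusted p = 9.77e-13). In replicate 1 Slc2a2 and G6pc2 were lower and Glp1r, Gnas and Prkar1a higher with the EIF2A label.

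The secretory granule list had 16 members (41.0%) higher and 20 (51.3%) lower of 39, against 34.6% and 36.1% of all genes. The counts were 16 and 15 with the length trend removed and 11 and 22 with library totals. The largest loss in CPM of any gene was Chga, chromogranin A, a core protein of the granule, at 11789, 12065 and 11898 CPM with GFP and 5837, 6561 and 6795 CPM with EIF2A, log2 fold change -0.90 ± 0.053 (SE, adjusted p = 1.04e-10). Prohormone-processing enzymes fell with it. Pcsk1 had a log2 fold change of -1.13 ± 0.044 (SE, adjusted p = 4.16e-13) and Cpe, carboxypeptidase E, of -0.69 ± 0.062 (SE, adjusted p = 2.38e-08). Ptprn, the granule membrane protein IA-2, stood at 927, 971 and 956 CPM with GFP and 466, 499 and 519.7 CPM with EIF2A and fell by 0.94. Syt9, a calcium sensor for exocytosis, rose by 0.89. In these 6 libraries more insulin mRNA thus stood beside less mRNA for these granule proteins.

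**Figure D3:**
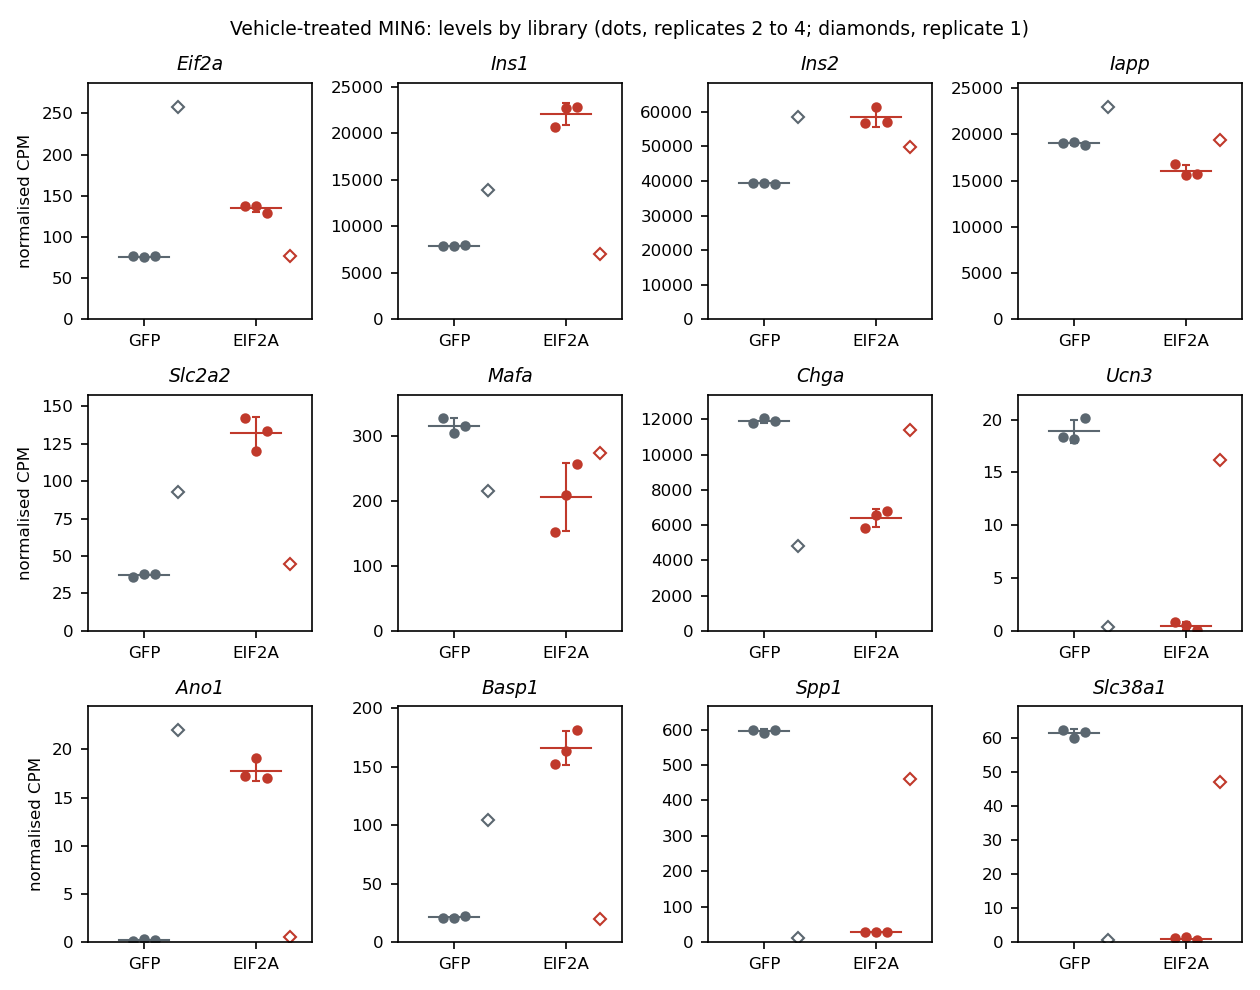
Normalised CPM of 12 genes in each vehicle library, with GFP in grey and EIF2A in red, replicates 2 to 4 as dots with the mean and SD, and replicate 1 as open diamonds scaled within its own pair. The dots of the 2 constructs do not overlap for any of the 12 genes, and the diamonds lie in the opposite order for all but Iapp.

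Transcription factors of the beta cell were called lower more often than higher, 16 against 11 of 32 tested, with a median of -0.15. With the length trend removed the counts were 13 lower and 12 higher and the median -0.05. Hnf4a, a nuclear receptor of the hepatocyte and islet network, rose from 22.4 to 67.1 CPM, log2 fold change 1.58 ± 0.068 (SE, adjusted p = 1.57e-12). Insm1, a transcriptional repressor that endocrine cells need to form, was at 227, 220.4 and 229 CPM with GFP and 100.4, 97.3 and 111 CPM with EIF2A and fell by 1.13. Glis3, an activator of insulin transcription, fell as well, log2 fold change -1.16 ± 0.068 (SE, adjusted p = 9.80e-11). Genes that mature beta cells keep silent, often called disallowed genes, were mostly lower: 14 of 21 tested were lower, 8 of them by 2-fold, and 6 were higher, with a median of -0.69. Aldh1a3, a retinaldehyde dehydrogenase used as a marker of dedifferentiated beta cells, was at 18.8, 21.4 and 20.3 CPM with GFP and had no read in any EIF2A library. With 1271 counts against a floor of 3 counts over the EIF2A group it was at least 236-fold lower. Maf, a transcription factor of alpha cells, was at 77.6, 74.5 and 75.8 CPM with GFP and 3.34, 2.30 and 1.597 CPM with EIF2A, log2 fold change -4.91 ± 0.11 (SE, adjusted p = 4.35e-16). Hk1, the hexokinase of tissues other than the beta cell, fell by 0.82 and also stood lower in replicate 1. Nfib, a nuclear factor, rose by 1.75.

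Sets of neuronal and adhesion genes also divided. Of 36 tested neuronal genes that beta cells share 17 (47.2%) were higher and 14 (38.9%) lower. The counts were 15 and 15 with library totals and 19 and 11 with the length trend removed. The shares over all genes were 34.6% and 36.1%. Th and Ddc, successive enzymes of dopamine synthesis, went opposite ways: Th stood at 88.5, 89.2 and 88.0 CPM with GFP and 209, 230.5 and 236 CPM with EIF2A and Ddc at 629, 625 and 610.3 CPM with GFP and 222, 217 and 213 CPM with EIF2A, with log2 fold changes of 1.34 and -1.52. Mapt, the tau protein of microtubules, rose by 1.41, and Gad2, which makes GABA, fell by 1.90. Of 34 adhesion and junction genes 13 were higher and 17 lower, 7 of the latter by 2-fold, with a median of -0.18. With the length trend removed 13 were higher and 11 lower of 33, with a median of 0.01 against 0.09 over all genes. With library totals 12 were higher and 19 lower. Cldn3 and Cldn7, claudins of tight junctions, fell together, from 22.3 to 0.631 CPM and from 45.6 to 4.79 CPM on average. Ncam1, a neural adhesion molecule, rose from 176 to 505 CPM.

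The largest fold changes were close to an on or off state. Ano1, a calcium-activated chloride channel, stood at 0.173, 0.335 and 0.261 CPM with GFP and 17.3, 19.1 and 17.1 CPM with EIF2A, the highest log2 fold change of any gene averaging 5 CPM or more, 6.09 ± 0.19 (SE, adjusted p = 1.63e-14). Myo7b and Cdhr5, a myosin and a protocadherin of intestinal brush borders, followed with log2 fold changes of 4.26 and 4.08, and Cdhr5 reached 39.4 CPM from 2.29. Basp1, a membrane protein of growth cones, stood at 21.3, 20.6 and 22.7 CPM with GFP and 153, 164 and 182 CPM with EIF2A. At the other end Spp1, the secreted phosphoprotein osteopontin, was at 599.7, 589 and 599 CPM with GFP and 29.9, 29.5 and 28.4 CPM with EIF2A, log2 fold change -4.34 ± 0.055 (SE, adjusted p = 1.26e-19). Slc38a1, a glutamine transporter, was at 62.6, 60.1 and 61.8 CPM with GFP and 1.18, 1.47 and 0.699 CPM with EIF2A. Emp1, an epithelial membrane protein, was at 11.7, 9.99 and 10.9 CPM with GFP and 0.279, 0 and 0 CPM with EIF2A, and Spred1, an inhibitor of Ras signalling, at 14.8, 15.1 and 13.6 CPM with GFP and 0.348, 0.184 and 0.299 CPM with EIF2A. The genes at the 2 ends of the fold change ranking were chosen among genes whose groups did not overlap. Their separation is therefore a condition of that choice and not a finding.

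Some genes had almost no reads with EIF2A: 13 tested genes had 0 counts over its 3 libraries and 55 others had 1 to 3 counts. By level, 72 called genes averaged under 1 CPM with EIF2A and at least 5 CPM with GFP, and 10 called genes the reverse. In replicate 1 all 72 of the first set and 9 of the second had the opposite order. Ano1, for example, stood at 22.03 CPM in the library labelled GFP of replicate 1 and at 0.602 CPM in the library labelled EIF2A, and Spp1 at 12.7 and 460.0 CPM. Aldh1a3 had no read in the library labelled GFP of replicate 1 and 11.1 CPM in the library labelled EIF2A. Where this comes from was not tested.

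The sequences before the starts of Spp1 and Cdhr5 are shown as examples of the large losses and gains, with CpG pairs in capitals, since they mark the 2 broad classes of mammalian promoters. Both are RefSeq sequence of GRCm38.p6, 250 bases before the annotated start, read along the gene: Spp1 at chr5:104434861-104435110 on the plus strand and Cdhr5 at chr7:141276787-141277036 on the minus strand.

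Spp1: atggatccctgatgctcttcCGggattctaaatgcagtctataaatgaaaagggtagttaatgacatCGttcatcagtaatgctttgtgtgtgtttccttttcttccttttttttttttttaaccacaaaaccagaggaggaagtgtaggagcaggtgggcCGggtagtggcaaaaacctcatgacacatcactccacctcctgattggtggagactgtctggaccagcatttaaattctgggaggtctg

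Cdhr5: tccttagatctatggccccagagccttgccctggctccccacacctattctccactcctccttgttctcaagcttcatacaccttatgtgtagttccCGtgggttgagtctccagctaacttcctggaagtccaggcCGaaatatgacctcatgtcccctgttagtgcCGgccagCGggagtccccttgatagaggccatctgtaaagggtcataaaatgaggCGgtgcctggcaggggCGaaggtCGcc

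Spp1 holds 3 CpG pairs at 43.6% G and C, and Cdhr5 holds 7 at 55.6%. RefSeq and GENCODE place the start within 1000 bases of each other for 91.1% of the 9995 tested genes that both give. The median over the windows of all tested genes was 16 (quartiles 10 and 23). It was 12 for genes called higher by 2-fold, 13 for genes called lower by 2-fold and 13.5 for the 50 windows found for the 72 genes that were almost off with EIF2A. Ins1, shown above, has 0. Genes with large changes in either direction thus had fewer CpG pairs before their starts in the middle of the distribution, and the quartiles of all these sets overlapped.

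Among the lists read here, ribosomal protein genes had the largest share of members called higher. Of 80 tested cytosolic ribosomal protein genes 76 were higher and 0 lower, against 34.6% and 36.1% of all genes, with a median log2 fold change of 0.53. With library totals the median was 0.42 (74 higher, 0 lower), and with the length trend removed 0.44 (70 higher, 0 lower). Rpl13a stood at 919, 932 and 924 CPM with GFP and 1735, 1874 and 1970.1 CPM with EIF2A, a log2 fold change of 1.01. The median was 0.69 after 1 h of thapsigargin and 0.53 after 3 h, and -0.15 in replicate 1, where 17 of 80 were above 0. These genes have many processed copies in the genome, which could split their reads.

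The factors that work beside EIF2A moved both ways. Of 21 genes for eIF2, eIF2B and initiator tRNA factors 11 were higher and 8 lower, with a median of 0.15. With library totals 6 were higher and 8 lower, with a median of 0.03, where the median over all genes was -0.12. Eif2s2, the beta subunit of eIF2, stood at 153, 143 and 133 CPM with GFP and 269, 261 and 234 CPM with EIF2A and rose by 0.83, while Eif2s1, the alpha subunit, was at 121, 121 and 121 CPM with GFP and 100.1, 98.9 and 101 CPM with EIF2A and fell slightly, log2 fold change -0.28 ± 0.045 (SE, adjusted p = 3.14e-05). Eif5b, which joins the ribosomal subunits, rose by 0.84. Eif2s3y, the Y-linked copy of the gamma subunit, fell by 1.59. Of 39 other translation factors 21 were higher and 11 lower (median 0.13), and with library totals 14 higher and 16 lower (median 0.01). Eif6 and Eif4ebp1, an anti-association factor and an inhibitor of cap-dependent initiation, rose by 0.97 and 0.91. Eef1a2, the elongation factor form of neurons and muscle, was the one member of that list lower by 2-fold, at 26.7, 27.7 and 30.0 CPM with GFP and 2.92, 3.87 and 4.19 CPM with EIF2A.

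Most nuclear genes of oxidative phosphorylation were called higher, 54 of 74 against 8 lower, median 0.28, with Atp5e, a small ATP synthase subunit, at 241, 246 and 243 CPM with GFP and 506, 535 and 569.5 CPM with EIF2A and Ndufa2, a subunit of complex I, at 136, 143 and 139 CPM with GFP and 267, 287 and 309.9 CPM with EIF2A. The counts became 43 higher and 13 lower of 73 with the length trend removed (median 0.14) and 43 and 12 with library totals (median 0.16). The median was 0.01 in replicate 1. Proteasome genes were higher in 21 and lower in 7 of 36 (median 0.15), and in 15 and 14 with library totals (median 0.04). The median over all genes with library totals was -0.12. Replication-dependent histones, whose usual mRNAs lack a polyA tail, were higher in 8 and lower in 0 of 17 (median 0.38, and 0.15 with the length trend removed). Hist1h2bc was at 106, 115 and 107 CPM with GFP and 288, 282 and 262 CPM with EIF2A. Cholesterol and fatty acid genes were higher in 17 and lower in 9 of 32, with Mvd, a mevalonate pathway enzyme, changed by 1.08 on the log2 scale and the elongase Elovl6 changed by -0.86. With library totals the median of the cholesterol list moved from 0.16 to 0.04 and the counts to 13 and 11, while all genes shifted downward too.

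Transcript length moved with these results and is given as a value beside them. In 5 equal bins of exonic length, from the shortest (67 to 2472 bases) to the longest (7679 to 123179 bases), the median log2 fold change was 0.28, 0.08, -0.03, -0.11 and -0.24. Transcripts of ribosomal protein and oxidative phosphorylation genes are mostly short. In replicate 1 the same bins ran from -0.04 to 0.03. The share of reads outside any gene was also higher with EIF2A, 17.4% ± 0.41 against 12.6% ± 0.31 (SD, n = 3 each, exact permutation p = 0.10, two-sided), and in replicate 1 it was 12.0% and 11.8%. EIF2A libraries were shallower, with 10522758 to 14798547 counts on genes against 18390091 to 22222701. Antisense transcripts were higher in 61 and lower in 12 of 132, against 34.6% and 36.1% of all genes. Malat1, a nuclear long noncoding RNA, stood at 1039, 936 and 831 CPM with GFP and 5821, 5557 and 4198 CPM with EIF2A, log2 fold change 2.47 ± 0.14 (SE, adjusted p = 2.18e-06). The part of length, unassigned reads and depth in any of these differences was not tested beyond the length-adjusted counts given.

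**Figure D4:**
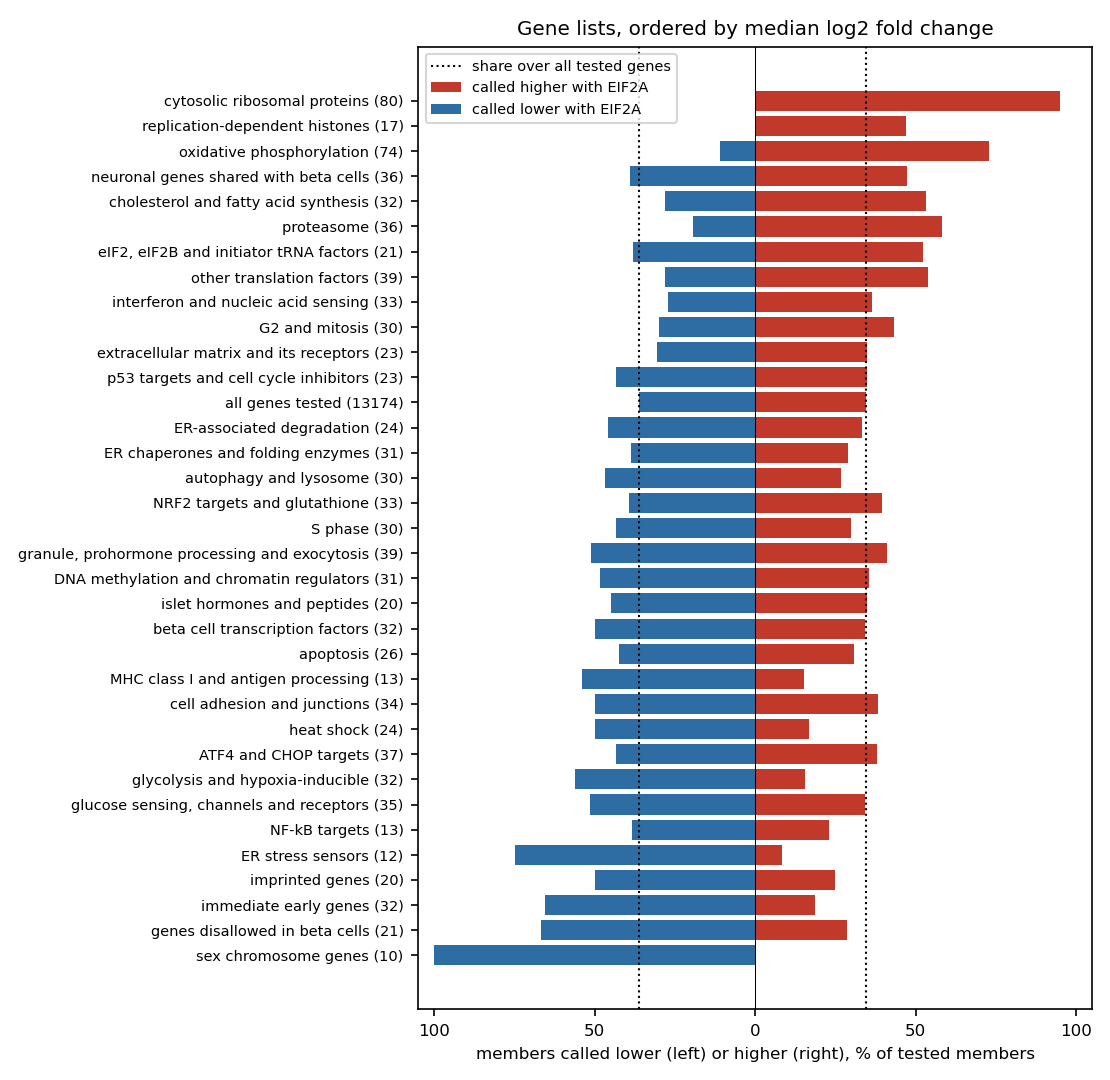
Share of tested members called higher (red, to the right) or lower (blue, to the left) with EIF2A for each gene list except the marker lists. Lists are ordered by median log2 fold change, with the number tested in brackets, and all genes tested are drawn as a further bar. Dotted lines give the shares over all tested genes (34.6% and 36.1%). Ribosomal protein, oxidative phosphorylation and proteasome genes reach furthest past the background to the right. Sex chromosome, ER stress sensor, disallowed and immediate early genes reach furthest to the left.

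The unfolded protein response was not uniformly shifted in these unstressed cells. Of 12 sensors and their transcription factors 9 were lower and 1 higher, median -0.31. Ern1, the IRE1 kinase and nuclease, stood at 43.8, 44.5 and 45.4 CPM with GFP and 8.98, 7.73 and 9.98 CPM with EIF2A, log2 fold change -2.33 ± 0.081 (SE, adjusted p = 8.97e-14). Xbp1, whose mRNA IRE1 splices, was at 242, 241 and 246 CPM with GFP and 179.5, 175 and 200.02 CPM with EIF2A, log2 fold change -0.40 ± 0.051 (SE, adjusted p = 2.22e-06). Eif2ak3, which encodes PERK, fell by 0.64 and was lower in replicate 1 as well, with a log2 ratio of -0.27. Most of the list went the other way there: 9 of 12 lay above 0 (median 0.29), with Ern1 at 1.13 and Xbp1 at 0.42. ER chaperones were higher in 9 (29.0%) and lower in 12 (38.7%) of 31, against 34.6% and 36.1% of all genes, median -0.05. With the length trend removed 12 were higher and 11 lower (median 0.03), and with library totals 6 and 19 (median -0.16). In replicate 1 the ratios of 28 of 31 lay above 0 (median 0.30). Hspa5, the chaperone BiP, was at 1026, 987 and 992 CPM with GFP and 1103, 1083 and 974 CPM with EIF2A, and its log2 fold change of 0.07 ± 0.050 (SE, adjusted p = 0.206) did not pass the threshold. The ER co-chaperones Dnajb9 and Dnajc3 fell, with log2 fold changes of -1.004 and -0.92, and Sil1, an exchange factor for BiP, rose by 0.86. ER-associated degradation genes were higher in 8 (33.3%) and lower in 11 (45.8%) of 24. The counts were 8 and 6 of 22 with the length trend removed and 6 and 13 of 24 with library totals.

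Downstream of PERK, ATF4 and CHOP targets were higher in 14 (37.8%) and lower in 16 (43.2%) of 37, against 34.6% and 36.1% of all genes. With the length trend removed the counts were 16 and 15 of 36, and with library totals 8 and 19 (median -0.31). Ddit3, which encodes CHOP, was at 54.1, 53.4 and 56.2 CPM with GFP and 114, 128 and 112 CPM with EIF2A, log2 fold change 1.11 ± 0.056 (SE, adjusted p = 1.20e-11). Trib3, a pseudokinase induced by CHOP, was at 22.4, 23.1 and 22.3 CPM with GFP and 48.2, 55.8 and 52.1 CPM with EIF2A and rose by 1.20, and Atf5, a transcription factor of the same arm, rose by 1.099. Atf3 was low, at 7.92, 9.37 and 9.70 CPM with GFP and 15.1, 13.5 and 15.7 CPM with EIF2A, and rose by 0.72. Atf4 itself, the transcription factor translated when eIF2 is phosphorylated, was at 529, 533 and 529 CPM with GFP and 633, 622 and 591 CPM with EIF2A, log2 fold change 0.22 ± 0.045 (SE, adjusted p = 0.000312), and missed the threshold with library totals (adjusted p = 0.0513). After 3 h of thapsigargin the ratio of Atf4 was -0.20, with all 3 EIF2A libraries below all 3 GFP libraries. Stc2, a secreted glycoprotein and ATF4 target, was lower with EIF2A at 0 h, at 8.14, 9.32 and 7.62 CPM with GFP and 0.209, 0.460 and 0.299 CPM with EIF2A. In replicate 1 Ddit3, Trib3 and Atf5 were lower with the EIF2A label (log2 ratios -0.84, -1.32 and -0.64) and Stc2 was higher (4.20). These mRNA levels do not measure the ATF4 protein or eIF2 phosphorylation.

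Immediate early genes were lower in 21 and higher in 6 of 32, 9 of the lower ones by 2-fold, with a median of -0.63 that was -0.52 with the length trend removed. Nr4a1, an orphan nuclear receptor induced by calcium and cAMP, was at 80.5, 83.3 and 82.0 CPM with GFP and 25.8, 20.4 and 21.1 CPM with EIF2A, log2 fold change -1.85 ± 0.072 (SE, adjusted p = 3.62e-13). Dusp5 and Dusp6, phosphatases that switch off ERK, were at 37.7, 39.7 and 39.1 CPM with GFP and 8.29, 9.30 and 10.8 CPM with EIF2A and at 24.9, 26.0 and 24.3 CPM with GFP and 4.80, 4.88 and 3.49 CPM with EIF2A, respectively. Btg2, an antiproliferative p53 target, fell by 1.18. In replicate 1 the list's median was 0.12, and Nr4a1, Dusp5, Dusp6 and Btg2 were all higher with the EIF2A label.

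Metabolic stress genes were also lower in part. Glycolytic and hypoxia-inducible genes were lower in 18 and higher in 5 of 32, median -0.21. Vegfa, an angiogenic growth factor, stood at 496, 473 and 469.8 CPM with GFP and 308, 312 and 283 CPM with EIF2A, Pfkfb3, a regulator of glycolytic flux, at 75.8, 73.2 and 69.5 CPM with GFP and 40.6, 37.8 and 37.8 CPM with EIF2A, and Ero1l, an ER oxidase induced by hypoxia, at 46.0, 44.6 and 44.6 CPM with GFP and 27.3, 24.1 and 23.2 CPM with EIF2A. All 3 were lower in replicate 1 too, with ratios of -0.35, -1.13 and -0.72. There the median of the list was -0.48, with 5 of 32 above 0, so this list lay on the same side in both sets of libraries. That is not particular to it: the medians of some other lists also kept their sign, such as proteasome genes (0.15 and 0.06), while those of the rest did not. P4ha2, a collagen hydroxylase, fell by 1.24 and was higher in replicate 1. Pkm, the pyruvate kinase, rose by 0.65. Heat shock genes were lower in 12 and higher in 4 of 24, and Bag3, a co-chaperone of HSP70, fell by 1.22 while Hsp90aa1 rose by 0.67. Txnip, a glucose-induced arrestin relative, was at 39.1, 37.2 and 38.3 CPM with GFP and 50.5, 50.1 and 46.8 CPM with EIF2A, log2 fold change 0.36 ± 0.058 (SE, adjusted p = 2.17e-05), and was higher in replicate 1 as well.

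Cell cycle and death genes were called in both directions. G2 and mitosis genes were higher in 13 (43.3%) and lower in 9 (30.0%) of 30 (median 0.07, and -0.04 with library totals). S phase genes were higher in 9 (30.0%) and lower in 13 (43.3%) of 30. The shares over all genes were 34.6% and 36.1%. With library totals G2 and mitosis genes were higher in 7 and lower in 13, and S phase genes in 7 and 18. With the length trend removed G2 and mitosis genes were higher in 17 and lower in 3, and S phase genes in 12 and 9. Lig1, the replicative DNA ligase, stood at 290.3, 289 and 287 CPM with GFP and 664, 684 and 718 CPM with EIF2A, log2 fold change 1.25 ± 0.046 (SE, adjusted p = 1.60e-13). Aurka, a mitotic kinase, rose by 0.43 and Ccnb1, the cyclin of mitotic entry, fell by 0.34. Cdkn1a, the p21 inhibitor of cyclin kinases, rose by 0.59 and Ccnd2, a G1 cyclin of beta cells, fell by 0.63. Of 23 p53 targets and cell cycle inhibitors 8 (34.8%) were higher and 10 (43.5%) lower. The counts were 8 and 7 with the length trend removed and 5 and 12 with library totals. Apoptosis genes were higher in 8 (30.8%) and lower in 11 (42.3%) of 26. They were higher in 8 and lower in 8 with the length trend removed, and in 5 and 13 with library totals. Bax, a pore-forming death factor, rose by 0.58. Autophagy and lysosome genes were lower in 14 (46.7%) and higher in 8 (26.7%) of 30. The counts were 12 lower and 11 higher with the length trend removed, and 17 and 5 with library totals. Wipi1, a phagophore protein, was at 134, 126 and 125 CPM with GFP and 43.8, 42.3 and 49.8 CPM with EIF2A. Map1lc3a, an LC3 form, was at 64.8, 62.2 and 62.3 CPM with GFP and 142, 170.5 and 187 CPM with EIF2A.

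Innate immune and antioxidant genes were also called in both directions. Interferon and nucleic acid sensing genes were higher in 12 (36.4%) and lower in 9 (27.3%) of 33, against 34.6% and 36.1% of all genes. They were higher in 9 and lower in 12 with library totals, and in 11 and 7 of 32 with the length trend removed. Mx1, an antiviral GTPase, was at 41.1, 45.8 and 45.0 CPM with GFP and 107, 107 and 94.8 CPM with EIF2A while Rsad2, the antiviral protein viperin, was at 31.8, 29.5 and 26.6 CPM with GFP and 8.70, 8.56 and 8.48 CPM with EIF2A, so 2 classical interferon-induced genes moved apart. MHC class I and antigen processing genes were lower in 7 (53.8%) and higher in 2 (15.4%) of 13. NF-kB targets were lower in 5 (38.5%) and higher in 3 (23.1%) of 13, the lower share near the 36.1% of all genes. NRF2 and glutathione genes were higher in 13 and lower in 13 of 33, in 12 and 17 with library totals and in 14 and 11 with the length trend removed. Gstm2, a glutathione transferase, fell from 15.4 to 1.16 CPM and Hmox1, the heme oxygenase, from 32.1 to 12.4 CPM, while Ftl1, the ferritin light chain, rose from 938 to 1694 CPM. Extracellular matrix genes were higher in 8 and lower in 7 of 23, in 6 and 9 with library totals and in 13 and 6 with the length trend removed. Chromatin regulators were higher in 11 and lower in 15 of 31, in 13 and 9 with the length trend removed and in 8 and 17 with library totals. Tet2 and Tet3, which oxidise methylated cytosine, fell, with log2 fold changes of -0.94 and -1.001.

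The differences were spread unevenly over the chromosomes. All 10 tested sex chromosome genes of the list were lower, median -1.07. Ddx3y and Kdm5d, both Y-linked, stood at 34.0, 33.9 and 33.7 CPM with GFP and 13.7, 10.6 and 12.9 CPM with EIF2A and at 9.44, 8.27 and 9.24 CPM with GFP and 1.81, 1.56 and 0.699 CPM with EIF2A, respectively. The X-linked deubiquitinase Usp9x was at 96.1, 94.7 and 98.9 CPM with GFP and 32.0, 31.4 and 29.1 CPM with EIF2A. Across the whole X chromosome 238 of 442 tested genes were lower and 89 higher, median -0.27, and in replicate 1 the median was 0.17. On chromosome 2 the balance was reversed, with 492 of 987 higher and 232 lower, median 0.19, and -0.16 in replicate 1. The strongest regional value came from 52 neighbouring tested genes from Pcdh9 to Fgf14 at the far end of chromosome 14 (GRCm38, chr14:93013410-124677127): 48 were lower and 0 higher, with a median of -0.93. It was -1.01 after 1 h of thapsigargin, -0.95 after 3 h and 0.78 in replicate 1. DNA copy number was not measured here.

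**Figure D5:**
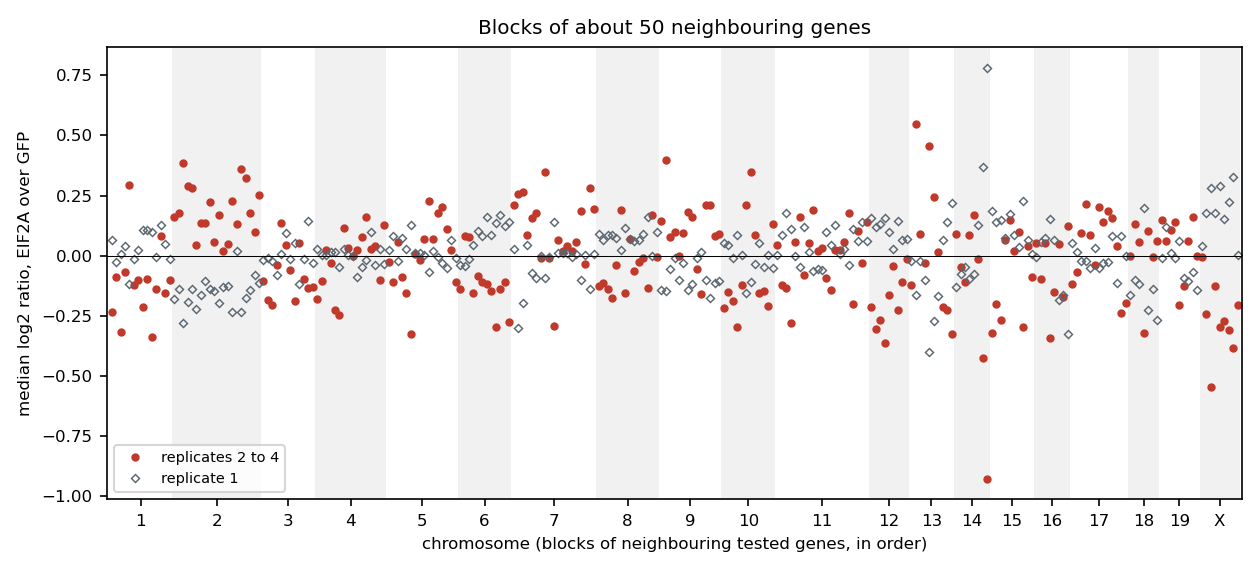
Median log2 ratio (EIF2A over GFP) of blocks of about 50 neighbouring tested genes along each chromosome, for replicates 2 to 4 (red dots) and for replicate 1 alone (open diamonds). The end of chromosome 14 sits at -0.93 in replicates 2 to 4 and at 0.78 in replicate 1, and several blocks of chromosome 2 and X also lie on opposite sides of 0.

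Imprinted genes, which are expressed from 1 parental copy, were lower in 10 and higher in 5 of 20, with 8 of the lower ones by 2-fold. Nnat, a small membrane protein of the ER, was at 679, 674 and 677 CPM with GFP and 151, 171 and 191 CPM with EIF2A, log2 fold change -1.99 ± 0.064 (SE, adjusted p = 2.66e-14). Peg3, a zinc finger protein, fell by 1.70, and Rian, a noncoding RNA of the Dlk1 region, fell by 1.68. Kcnq1ot1, a noncoding RNA of another imprinted region, rose by 1.98, as did Igf2 above. In replicate 1 Nnat, Peg3 and Rian were higher with the EIF2A label.

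The label of the cells was checked against markers. Insulin, Pdx1, Mafa, Slc2a2 and Pcsk1 were present in every library, as a beta cell line should show. Of the defining markers of other cells Amy2a5 of acinar cells and Kdr of endothelial cells had no read, and Krt19 and Sox9 of duct cells, Pdgfra of mesenchymal cells and Cdh5 of endothelial cells averaged at most 0.108 CPM in either group. Collagens were low but present, with Col1a1 averaging 1.44 CPM with GFP and 1.96 CPM with EIF2A and Col3a1 reaching 2.30 CPM in EIF2A replicate 2. The alpha cell genes Gcg and Irx2 averaged 689 and 3.40 CPM with GFP and 224 and 0.992 CPM with EIF2A. Of the acinar markers 8 of 15 were at 0 in all 6 libraries. Of 6 tested alpha cell markers 2 were higher and 3 lower: Gcg, Slc38a5 and Irx2 fell, and Gc, the vitamin D binding protein, rose by 0.55 and Ttr, transthyretin, by 0.099. With library totals 1 was higher and 3 lower. Their sum with the untested members ran from 2535 to 2545 CPM with GFP and from 1770 to 1852 CPM with EIF2A. Summed macrophage and lymphocyte markers ran from 61.6 to 67.5 CPM and from 28.1 to 38.5 CPM, nearly all of it C1qa, at 56.7, 61.4 and 60.0 CPM with GFP and 26.7, 32.1 and 32.4 CPM with EIF2A, with Ptprc, the pan-leukocyte marker, averaging 0.0304 CPM with GFP and 0.133 CPM with EIF2A. Csf1r averaged 0.119 and 1.25 CPM. Mesenchymal markers summed to 13.1 to 15.8 CPM with GFP and to 8.01 to 31.1 CPM with EIF2A. Of 9 tested duct cell markers 4 were higher, among them Onecut2 and Car2, and 4 were lower. Duct cell markers summed to 1336 to 1350.3 CPM with GFP and to 903 to 1029.8 CPM with EIF2A. Spp1, one of the duct cell markers, averaged 596 CPM with GFP and 29.3 CPM with EIF2A, a loss larger than the fall of the sum. Endothelial markers summed to 15.9 to 18.001 CPM with GFP and to 26.4 to 28.7 CPM with EIF2A. The part of these cell types in the gene differences was not tested. In bulk RNA, fewer cells of a type and less RNA per cell cannot be told apart.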

How the data were processed

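The deposited table holds whole-number read counts per gene symbol, not normalised, for all 24 libraries, with 24421 gene rows. Per the submitters' processing notes bcl2fastq, STAR and the build mm10 were used. No source used here names the counting program, its annotation or its strand setting. 2 rows that name no gene (reads outside genes, 12.4% to 17.9% of the reads in these 6 libraries, and ambiguous reads) were left out of library sizes and tests.

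From these counts the 6 vehicle libraries of replicates 2 to 4 were fitted with edgeR 4.0.16 (R 4.3.3): filterByExpr (minimum count 10), TMM scaling, glmQLFit with robust estimation and glmQLFTest, with 4 residual degrees of freedom and Benjamini-Hochberg adjustment over 13174 genes. A gene was called at an adjusted p under 0.05. Standard errors are the log2 fold change divided by the root of F. The fit was tested on simulated data first. Levels are TMM-scaled CPM within each set of libraries. Ratios at 1 h, at 3 h and in replicate 1 are log2(CPM + 0.5) differences, described without a test. Positions and exonic lengths come from GENCODE M21 (GRCm38), matched by symbol for 12674 tested genes, and promoter sequences from RefSeq (GRCm38.p6).

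Named genes were the 10 highest and 10 lowest fold changes among called genes of at least 5 CPM with no overlap between the groups. To these came the 6 largest gains and losses in CPM, the 4 smallest p of each list and a fixed set of 13 genes. Neurod1 and Serp1, genes that end a chromosome block and the marker genes of other cells were added as reference points, Neurod1 after its value was seen. The libraries, lists and rule were chosen with earlier results of these data known. Same-numbered libraries of the 2 constructs did not deviate together in every pair, so replicate numbers were not used as a block. Other scalings, filters, DESeq2 1.42.0, limma voom (limma 3.58.1), a length adjustment and left-out libraries were tried as alternatives. Some named genes are not reported here.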

Additional observations from a re-analysis of the deposited data

Results flagged for a closer look

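Reads outside any gene averaged 17.4% in the 3 EIF2A libraries of replicates 2 to 4, above the 12.4% to 13.0% of the GFP libraries. This row is not part of the gene tests, and it stood out as a signal above the control level. After 1 h of thapsigargin the EIF2A libraries of replicates 2 to 4 ran from 14.8% to 15.4% and the GFP libraries from 10.9% to 11.4%. In replicate 1 the libraries labelled EIF2A and GFP were closer, at 12.0% and 11.8% at 0 h and 11.6% and 10.7% at 1 h.

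Eif2a stood at 258 CPM in the library labelled GFP of replicate 1, which the comparison does not use. That is above the 130 to 137 CPM of the 3 EIF2A libraries and above the 77.6 CPM of the library labelled EIF2A in the same replicate.

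Atf4 had a log2 ratio of -0.20 after 3 h of thapsigargin, with all 3 EIF2A libraries below all 3 GFP libraries, whereas at 0 h all 3 were above them (log2 fold change 0.22). The 2 effects point in opposite directions. The difference between the 2 times was not tested.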

How the results depend on the processing

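Every alternative that kept replicate 1 out left each count within 1.5 times of its value and Eif2a called higher. These were another normalisation (RLE), library totals, no filter, a filter of 1 CPM, all 18 libraries sharing the spread, limma voom, DESeq2, a threshold of 0.01, the length adjustment and leaving out each library. Leaving out 1 library gave 4188 to 4656 genes higher, 4414 to 4786 lower, 573 to 632 higher and 1037 to 1151 lower by 2-fold, and 0.81 to 0.85 for Eif2a. Library totals gave 3463 higher and 5934 lower, and the length adjustment 5241 and 3500, with Eif2a at 0.71 and 1.01. With the replicate 1 libraries added, the edgeR counts fell to 0 higher, 0 lower, 0 higher by 2-fold and 0 lower by 2-fold (3018 genes at an unadjusted p under 0.05). There Eif2a turned to -0.022 (adjusted p = 0.976) and Atf3 to -0.0321, and with the length adjustment Sod2 turned to 0.00865 (adjusted p = 0.878). The cause was not tested. With the replicate number as a block 4625 genes were higher and 4833 lower, 552 and 1037 of them by 2-fold, and Eif2a was at 0.82. Same-numbered libraries correlated at 0.189, 0.009 and 0.129 in their deviations over 10823 genes, and not every library was closest to its own number. Of the named genes Mafa alone lost its call under the block. Leaving aside the fits with replicate 1, Cela1, Mafa, Atf4, Pdx1 and Sod2 were the named genes that lost a call under at least 1 alternative. With 10522758 to 22222701 gene counts a library, genes under about 1 CPM rest on few reads.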

Other observations

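Other runs of neighbouring genes moved together. On chromosome 13 the 50 tested genes from Cks2 to Pcbd2 had 39 higher and 2 lower, with a median log2 fold change of 0.46, 0.56 after 1 h and 0.56 after 3 h of thapsigargin, and -0.40 in replicate 1. On the X chromosome the 49 tested genes from Cul4b to Aff2 had 5 higher and 33 lower, with a median of -0.54, and 0.28 in replicate 1. Processed transcripts were called higher in 59 and lower in 14 of 132, and bidirectional promoter lncRNAs in 17 and 3 of 30, against 34.6% and 36.1% of all tested genes. Of 118 lincRNAs 43 were higher, a share near that of all genes, and 22 lower. In replicate 1 the medians of these 3 classes were -0.03, 0.02 and -0.04.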
